A study of Mus musculus with 24 samples.

Results

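The 9 genes described here carry out antigen presentation by major histocompatibility complex (MHC) class II in the mouse: H2-Aa, H2-Ab1, H2-Eb1, Cd74, Ciita, H2-DMa, H2-DMb1, H2-Oa and H2-Ob. They were taken by symbol from a list that was drawn up with earlier results of these data known. All 9 were found among the 24346 genes of the expression tables, and 9 of 9 passed the filter on low values, which 13799 genes passed. RNA sequencing was done on colorectal tissue from mice given azoxymethane (AOM), a carcinogen, and dextran sulfate sodium (DSS), which inflames the colon, a pairing used to induce colon tumors. The 24 libraries were labelled c-MAF_KO or WT for genotype (c-MAF is a transcription factor of the AP-1 superfamily encoded by Maf) and tumor or normal for tissue.

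The WT label covered 4 young tumors, 2 young normal tissues, 1 old tumor and 2 old normal tissues. The KO label covered 3 groups named in the titles by a leading number and a zygosity word, 1-hetero, 8-hetero and 8-homo, each with 3 tumors and 2 normal tissues. Every group received AOM and DSS, so none was untreated. What the leading numbers stand for is not explained by the labels. They also do not put the age words in weeks, name the targeted allele or a Cre driver, give the sex of the animals, or say which tumor and normal tissue came from the same animal. Values are FPKM, fragments scaled to transcript length and library size, so levels of different genes can be set side by side per length.

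MHC class II molecules are surface heterodimers that show peptides from endosomes to CD4+ T cells. H2-Aa and H2-Ab1 encode the alpha and beta chains of one such heterodimer, I-A, and H2-Eb1 encodes the beta chain of the other, I-E. Cd74, the invariant chain, guides new class II molecules to endosomes and leaves a fragment in their groove. H2-DMa and H2-DMb1 encode the chains of H2-M, which releases that fragment and edits the bound peptides, and H2-Oa and H2-Ob encode H2-O, which restrains H2-M and is found mainly in B cells and some dendritic cells. Ciita encodes the class II transactivator, which does not bind DNA itself but acts through factors bound to X and Y boxes in the promoters of these genes. Dendritic cells, macrophages and B cells express class II constitutively, and interferon gamma induces it in gut epithelium and other cells.

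Of the 9 genes, 7 lie on chromosome 17 in the mouse genome build GRCm38 (GENCODE M21 annotation). H2-Oa (34092340 to 34095234), H2-DMa (34119541 to 34139101), H2-DMb1 (34153072 to 34160230), H2-Ob (34238903 to 34254414), H2-Ab1 (34257689 to 34269419) and H2-Eb1 (34305867 to 34316674) lie on the plus strand, and H2-Aa (34282744 to 34287823) lies on the minus strand. Ciita is on chromosome 16 (10480059 to 10528418, plus strand), and Cd74 lies elsewhere in the genome. H2-DMb1 has a near-identical neighbour, H2-DMb2, and reads may be split between them, so the values of both are uncertain. H2-Eb1 and H2-Oa overlap antisense gene models (Gm20513 and BC051537), and Ciita overlaps Dexi. H2-DMa overlaps Brd2 in this annotation.

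The promoters of 4 genes are shown because class II factors are known to bind X and Y boxes. They were picked by their results: H2-Eb1 rose in WT-labelled tumors, H2-Aa fell short of the threshold and the H2-O pair had the opposite sign. The log2 differences of H2-Eb1 and H2-Aa were close, at 1.28 and 1.13 (SE 0.47 and 0.48). Whether the letters bear on any of these differences was not tested. Each line gives the 150 bases before the start of the gene in RefSeq on GRCm38.p6, read 5′ to 3′ on the gene's own strand. Capitals mark the Y box core, GATTGG, and the X box core, each searched on both strands, with no overlap between the 2 motifs in these windows.
H2-Aa, chr17:34287824-34287973, minus strand: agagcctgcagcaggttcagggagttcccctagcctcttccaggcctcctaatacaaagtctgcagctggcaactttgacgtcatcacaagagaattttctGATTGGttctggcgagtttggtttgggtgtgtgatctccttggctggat
H2-Eb1, chr17:34305717-34305866, plus strand: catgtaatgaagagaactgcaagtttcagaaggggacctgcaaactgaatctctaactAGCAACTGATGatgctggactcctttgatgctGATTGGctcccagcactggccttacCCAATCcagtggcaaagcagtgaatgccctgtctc
H2-Oa, chr17:34092229-34092378, plus strand: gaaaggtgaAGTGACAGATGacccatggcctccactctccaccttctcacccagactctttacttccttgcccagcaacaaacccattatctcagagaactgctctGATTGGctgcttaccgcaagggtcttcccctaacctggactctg
H2-Ob, chr17:34238755-34238904, plus strand: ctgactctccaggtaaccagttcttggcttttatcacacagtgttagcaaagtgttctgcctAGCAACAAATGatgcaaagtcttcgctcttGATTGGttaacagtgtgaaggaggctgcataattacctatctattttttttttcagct

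Of the 9 genes, 6 had a promoter entry in the RefSeq table. The Y box core was found in 5 of them and the X box core in 4, and the 4 with both were H2-Eb1, H2-Oa, H2-Ob and H2-DMb1. H2-Aa held an exact match to the Y box core only. H2-DMa held neither in the windows before its RefSeq starts, at 34122682 to 34122831 and 34125368 to 34125517. Both windows lie within the annotated span of H2-DMa, and no other start of that gene was searched. Among 32851 promoter windows of the same length in the table, 10.9% held the Y box core, 0.828% the X box core and 0.0974% both. The X box core began at -92 in H2-Eb1, -88 in H2-Ob and -95 in H2-DMb1, counted from the RefSeq start, and the Y box core began at -60, -58 and -62 in the same genes. In H2-Oa the exact match to the X box letters lay farther upstream, at -141, and the Y box core at -44. Nearer the Y box core, H2-Oa also holds agcaac and H2-Aa holds ggcaac. These resemble the start of the X box letters without a full match. The search therefore does not show that H2-Aa lacks an X box or that the one of H2-Oa lies at -141. The motif letters were chosen after the sequences had been seen, and a match is a description of the letters only.

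Facts of the whole set touch the values that follow. Maf was not lower under the KO label: it was 1.63 to 2.26 FPKM in the WT young tumors, 7.26 in the WT old tumor and 2.62 to 7.4 in the KO-labelled tumors. Genotype is therefore given as labelled throughout, and no value here checks it. The WT old tumor stood apart, with Ptprc, the pan-leukocyte CD45 gene, at 113 FPKM against 7.04 to 23.3 in the other 13 tumors, and Cd79a, a B cell receptor component, at 404 FPKM. Its Epcam, an epithelial surface gene, was 418 FPKM against 596 to 1103 in the other tumors. The WT young comparisons do not use this library. Xist, which silences an X chromosome in females, was at 1 FPKM or more in 6 libraries. Those were tumor 3 and both normal tissues of the 1-hetero and of the 8-hetero group. Tumor and normal tissue in these groups, and under the KO label, therefore differ in Xist too. Tissue and likely sex cannot be fully told apart there. The number of fragments behind each library was unknown. The steps in low values gave relative depths that differed 2.71-fold between the deepest and the shallowest library.

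**Figure D1:**
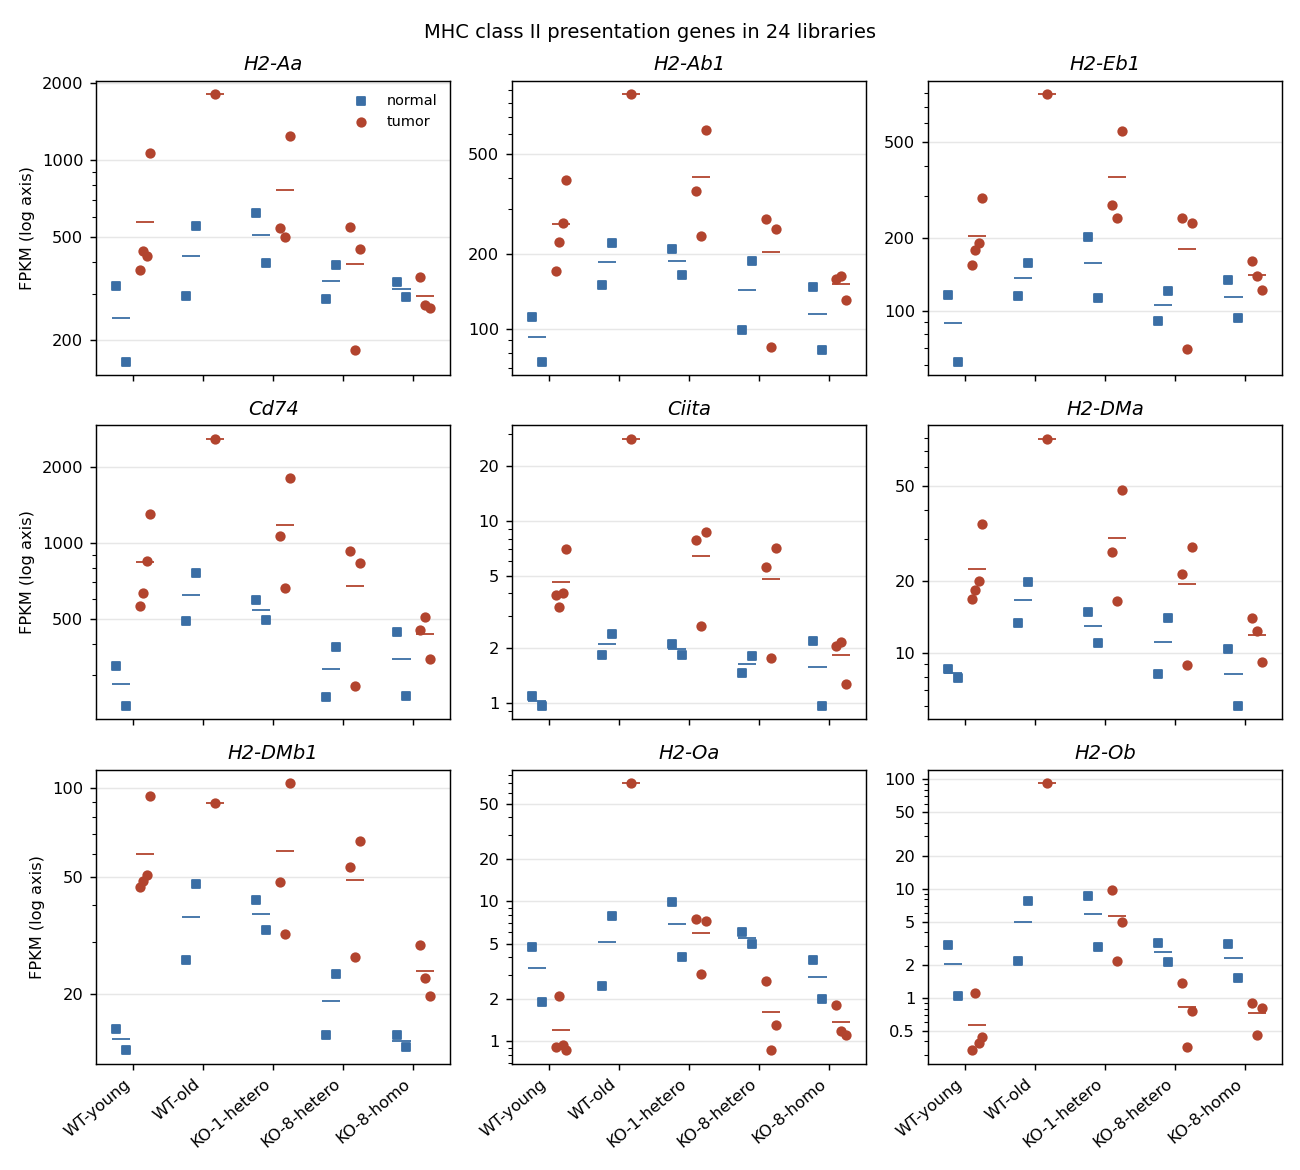
Level of each of the 9 genes in every library, 1 panel a gene, with FPKM on a log axis and the 5 title groups along the horizontal axis. Blue squares are normal tissue, red circles are tumors and short bars are group means. H2-Oa, H2-Ob and Ciita have the lowest levels, and H2-Oa and H2-Ob reach 70.1 and 92.4 FPKM in the WT old tumor.

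Across all 24 libraries, Cd74 had the highest median level at 537 FPKM, followed by H2-Aa at 394, H2-Ab1 at 179 and H2-Eb1 at 157 FPKM. The peptide editor chains were lower, with a median of 32.4 FPKM for H2-DMb1 and 14.5 for H2-DMa. H2-Oa had a median of 2.58 FPKM, Ciita 2.19 and H2-Ob 1.82. The spread over libraries exceeded the steps between neighbours in this order for Cd74 and H2-Aa (227 to 2582 and 164 to 1802 FPKM), for H2-Ab1 and H2-Eb1 (73.9 to 865 and 61.7 to 791 FPKM), and for the last 3 genes. H2-Ea-ps, the pseudogene of the I-E alpha chain, was listed at 0 in every library except the WT old tumor, where it was 0.0447 FPKM.

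The first question was whether class II genes differed between tumor and normal tissue under each label. In tumors labelled WT, 6 of 9 genes were higher than in normal tissue, namely H2-Ab1, H2-Eb1, Cd74, Ciita, H2-DMa and H2-DMb1. Of all 13799 genes tested in this comparison, 30.4% passed in either direction and 15.5% were higher in tumor. The median log2 difference of the 9 genes was 1.28, against 0.02 over all genes. H2-Aa missed the threshold, and H2-Oa and H2-Ob did not move with the other 7. With the KO label 0 of 9 passed, where 47.2% of all genes passed and 24.1% were higher in tumor. There the median difference of the 9 genes was 0.68. With 1 library left out at a time, the WT-label count was 1 without WT young normal 1 or 2, 2 without the WT old tumor, WT young tumor 4 or WT old normal 1, and 4 to 7 otherwise. The KO-label count was 4 without 8-hetero tumor 2, 2 without 8-homo tumor 3, 1 without 8-homo tumor 2 or 1-hetero normal 1 or 2, and 0 otherwise.

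Ciita had the largest difference of the 9 in the pooled WT-label comparison. In the WT young group its level was 3.91, 3.35, 4.04 and 7.05 FPKM in the tumors and 1.09 and 0.96 FPKM in normal tissue. In the WT old group it was 28.3 FPKM in the tumor and 1.83 and 2.38 FPKM in normal tissue. All 5 tumors exceeded all 4 normal tissues, and the groups did not overlap with the WT old tumor left out either. The mean was 9.33 ± 10.7 FPKM in tumor (SD, n = 5) and 1.56 ± 0.667 in normal tissue (SD, n = 4), a log2 difference in FPKM plus 1 of 1.60 (SE 0.47, limma adjusted p = 0.014). Between the WT young groups the difference was 1.42 (SE 0.40, limma adjusted p = 0.0161), with the spread estimated over all 10 title groups. In the KO-labelled libraries Ciita ran from 1.27 through a median of 2.64 to 8.64 FPKM in 9 tumors and from 0.965 through 1.83 to 2.2 FPKM in 6 normal tissues. There 5 of 9 tumors lay above all normal tissues, and the difference of 0.79 did not pass (limma adjusted p = 0.086).

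For the classical chains the tumor and normal ranges overlapped more. H2-Aa was 373, 442, 425 and 1065 FPKM in the WT young tumors against 322 and 164 in WT young normal tissue, and 1802 FPKM in the WT old tumor against 296 and 554 in WT old normal tissue. Only 2 of 5 WT-labelled tumors exceeded every WT-labelled normal tissue, and the log2 difference of 1.13 (SE 0.48) did not pass (limma adjusted p = 0.0754). In KO-labelled tissue H2-Aa had a median of 451 FPKM in tumor (182 to 1238) and 362 in normal tissue (288 to 624), with 1 of 9 tumors above and 3 of 9 below every normal tissue, a difference of 0.16 (limma adjusted p = 0.752). H2-Aa thus had the smallest tumor difference of the 7 genes outside the H2-O pair under either label.

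H2-Ab1, the chain that pairs with H2-Aa, was 170, 222, 264 and 395 FPKM in the WT young tumors and 112 and 73.9 FPKM in their normal tissue. The WT old tumor had 865 FPKM and WT old normal tissue 150 and 221 FPKM, and 4 of 5 tumors lay above all 4 normal tissues. The WT-label difference was 1.31 on the log2 scale (SE 0.48, limma adjusted p = 0.0425). H2-Eb1 behaved alike in size, with 155, 180, 191 and 293 FPKM in WT young tumors and 117 and 61.7 FPKM in their normal tissue, and a WT-label difference of 1.28 (SE 0.47, limma adjusted p = 0.043). In KO-labelled tissue the medians of H2-Ab1 were 234 FPKM in tumor and 156 in normal tissue, and those of H2-Eb1 were 231 and 117 FPKM. For each of these 2 genes 5 of 9 KO-labelled tumors exceeded all 6 normal tissues, with differences of 0.62 and 0.68 that did not pass.

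Cd74 (chromosome 18, 60803848 to 60812652, plus strand) was the most abundant of the 9 transcripts in the tumors. It measured 566, 637, 851 and 1306 FPKM in the WT young tumors and 327 and 227 FPKM in WT young normal tissue, with no overlap and a ratio of means of 3.03. The WT old tumor reached 2582 FPKM, and WT old normal tissue had 494 and 758 FPKM, so that 3 of 5 WT-labelled tumors exceeded all normal tissues. Cd74 rose under the WT label (log2 difference 1.3, SE 0.49, limma adjusted p = 0.0477) and between the WT young groups (1.54, SE 0.47, limma adjusted p = 0.0247). In KO-labelled tissue it had a median of 662 FPKM in tumor (273 to 1799) and 419 in normal tissue (246 to 593), a difference of 0.77 (limma adjusted p = 0.104).

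The H2-M chains rose together in WT-labelled tumors. In WT young mice H2-DMa was 16.9, 18.4, 20.0 and 34.9 FPKM in tumor against 8.61 and 7.88 FPKM in normal tissue, and in WT old mice it was 79.1 against 13.4 and 19.9 FPKM. H2-DMb1 was 46.1, 48.5, 50.7 and 93.9 FPKM in young tumor against 15.2 and 12.9 FPKM in young normal tissue, and 88.8 against 26.1 and 47.3 FPKM in old mice. Each young tumor was above each young normal tissue for both genes, whereas WT old normal tissue reached into the tumor range. The WT-label difference was 1.2 for H2-DMa (SE 0.44, limma adjusted p = 0.0441) and 1.44 for H2-DMb1 (SE 0.45, limma adjusted p = 0.0178). Between the WT young groups H2-DMb1 had the largest difference of the 9 genes, 1.95 (SE 0.42, limma adjusted p = 0.00304). With the KO label H2-DMb1 fell just short of the threshold, with medians of 31.9 FPKM in tumor and 19.0 in normal tissue and a difference of 0.85 (SE 0.35, limma adjusted p = 0.0507).

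The H2-O chains went their own way. H2-Oa was 0.916, 2.1, 0.944 and 0.869 FPKM in the WT young tumors and 4.75 and 1.9 FPKM in WT young normal tissue. H2-Ob was 0.331, 1.11, 0.391 and 0.437 FPKM in the same tumors and 3.04 and 1.04 FPKM in the same normal tissue. For each gene 3 of 4 young tumors lay below both normal tissues and replicate 2 lay between them. The differences of -0.92 and -0.90 did not pass (limma adjusted p = 0.12 and 0.172). The WT old tumor stood at 70.1 FPKM for H2-Oa and 92.4 for H2-Ob, where WT old normal tissue had 2.47 and 7.86 FPKM for H2-Oa and 2.16 and 7.74 for H2-Ob. The pooled WT-label differences were -0.13 for H2-Oa and -0.15 for H2-Ob, and -1.14 and -1.33 without that library, and did not pass either way. In KO-labelled tissue H2-Oa had a median of 1.81 FPKM in tumor and 4.48 in normal tissue, and H2-Ob 0.894 and 3.03 FPKM, with 5 of 9 and 6 of 9 tumors below all 6 normal tissues and pooled differences of -0.74 and -0.67 that did not pass.

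**Figure D2:**
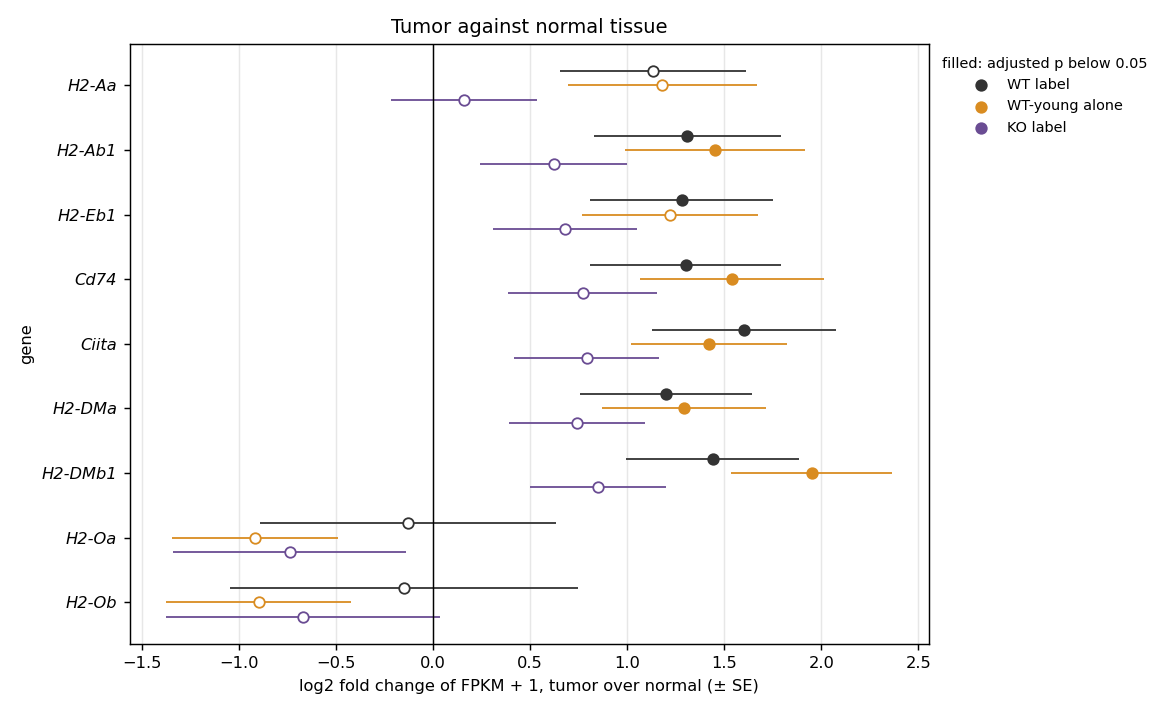
Difference between tumor and normal tissue for each of the 9 genes, as log2 of FPKM plus 1 with the standard error, for the WT label, the WT young groups and the KO label. All 3 come from fits to all 24 libraries. Filled symbols passed at an adjusted p under 0.05. The 7 genes outside the H2-O pair lie above 0 in all 3 comparisons, H2-Oa and H2-Ob below it.

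Tumor and normal tissue were also compared within each title group. In WT young libraries 5 of 9 genes were higher in tumor, namely H2-Ab1, Cd74, Ciita, H2-DMa and H2-DMb1, where 26.1% of all genes passed and 13.7% were higher. Ranges that did not overlap, with tumor above, were found for 7 of 9 members and 25.3% of all genes. In the KO 8-hetero group 2 of 9 passed, 1 in each direction, where 43.1% of all genes did, 21.9% higher and 21.2% lower. Both of its normal tissues and 1 of its 3 tumors had high Xist, so tissue and likely sex are mixed there. H2-DMb1 was 53.9, 26.8 and 66.1 FPKM in 8-hetero tumors against 14.5 and 23.4 FPKM in normal tissue (log2 difference 1.26, SE 0.44, limma adjusted p = 0.0285). H2-Oa was 2.69, 0.861 and 1.31 FPKM in the same tumors against 6.06 and 4.97 FPKM in normal tissue (-1.37, SE 0.45, limma adjusted p = 0.022). The groups did not overlap for either gene, nor for H2-Ob (ratio of means 0.313), whereas those of the other members did. How many of all genes showed no overlap was not counted here. The 8-hetero count was 0 without either normal tissue, 1 without tumor 1 or 3, and 5 without tumor 2. The WT young count was 1 without either normal tissue, 2 without tumor 4 and 3 without tumor 3.

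In the KO 1-hetero group 0 of 9 passed between tumor and normal tissue, where 14.1% of all genes did and 4326 had an unadjusted limma p under 0.05. Xist was high in both normal tissues of this group and in tumor 3 only, so tissue and likely sex are mixed here too. Ciita was 7.9, 2.64 and 8.64 FPKM in 1-hetero tumors and 2.11 and 1.84 FPKM in normal tissue, without overlap (log2 difference 1.19, SE 0.42, limma adjusted p = 0.0676). H2-Ab1, H2-Eb1, Cd74 and H2-DMa did not overlap either, with tumor above, and the remaining members did. In the KO 8-homo group 0 of 9 passed, where 23% of all genes did and 5156 had an unadjusted limma p under 0.05. There Ciita was 2.05, 2.17 and 1.27 FPKM in tumor and 2.2 and 0.965 FPKM in normal tissue, so that the groups overlapped. In 8-homo tissue H2-DMb1 did not overlap, with tumor above (ratio of means 1.73). H2-Oa and H2-Ob did not overlap either, with tumor below (0.472 and 0.313), and the remaining members overlapped. The share of all genes without overlap was not counted in these KO groups. A direct test of whether the tumor difference was unequal between 8-hetero and 8-homo passed for 0 of 9 genes (2.86% of all genes, 3118 at an unadjusted limma p under 0.05), with Ciita at 0.84 (limma adjusted p = 0.415).

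Markers of the cell types in this tissue were read in the same comparison. Of 9 macrophage markers 7 were higher in tumor under each label and 2 in the WT young libraries alone. Their summed level was 497 to 733 FPKM in WT young tumors and 2217 in the WT old tumor, against 303 to 576 in WT-labelled normal tissue, and 651 to 2255 against 452 to 1007 FPKM under the KO label. Of 6 smooth muscle markers 6 were lower in tumor under each label and in WT young, and 0 passed in the 1-hetero group. Their sum was 172 to 368 FPKM in tumor and 2119 to 7073 FPKM in normal tissue of the WT young group. The WT old tumor went the other way, at 2852 FPKM against 919 and 2691 in WT old normal tissue. Under the KO label the sum was 235 to 1280 FPKM in tumor and 1390 to 4506 in normal tissue. Of 9 B cell markers 0 passed under either label. In bulk tissue, fewer cells of a type and less RNA per cell cannot be told apart, and the part of these cell types in the class II differences was not tested. No marker on these lists was at 0 throughout.

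Next, 5 ratios between members were compared within libraries, as differences of log2 of FPKM plus 1. Like the members, they were listed with earlier results of these data known, and they restate in the same libraries the differences given above, so they are no independent support for them. The ratio of H2-Oa to H2-DMa, an inhibitor chain against an editor chain, ran from -3.65 through a median of -2.43 to -1.70 in the 9 KO-labelled tumors and from -1.34 to -0.38 in the 6 normal tissues. Every tumor was below every normal tissue (difference -1.49, exact two-sided permutation p = 0.0002, the smallest that 5005 splits can give, adjusted p = 0.002 over 10 ratio tests). The ratio of H2-Ob to H2-DMb1 differed by -1.51, with 8 of 9 tumors below all normal tissues (exact permutation p = 0.0032, adjusted p = 0.00799). By title group the median H2-Oa to H2-DMa ratio was -3.33 in WT young tumors and -1.18 in their normal tissue, -2.12 and -0.91 in 1-hetero, -2.60 and -0.86 in 8-hetero, and -2.43 and -1.24 in 8-homo.

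With the WT label the same ratio did not pass. The H2-Oa to H2-DMa difference was -1.33 (exact permutation p = 0.151, adjusted p = 0.215, where 126 splits allow no p under 0.00794), with 4 of 5 tumors below all normal tissues and the WT old tumor above them at -0.17. Without that tumor both ratios passed, with differences of -1.98 for H2-Oa to H2-DMa and -2.65 for H2-Ob to H2-DMb1 (exact permutation, adjusted p = 0.0408 for each). Without the 2 WT old normal tissues as well, the differences were -2.21 and -2.85, where 15 splits allow no p under 0.0667, so that neither could pass.

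Relative to H2-Aa, whose own tumor difference was the smallest of the 7, 3 genes were higher in KO-labelled tumors than in KO-labelled normal tissue. The ratio of Cd74 to H2-Aa was higher by 0.61, with 6 of 9 tumors above all normal tissues (exact permutation p = 0.000999, adjusted p = 0.00466). The ratio of H2-DMa to H2-Aa was higher by 0.58, with 7 of 9 above (exact permutation p = 0.0014, adjusted p = 0.00466), and that of Ciita to H2-Aa by 0.63, with 5 of 9 above (exact permutation p = 0.0182, adjusted p = 0.0364). The WT-label differences were 0.17, 0.07 and 0.47 and did not pass. The KO-label ratios could not be tested without the 6 libraries with high Xist, the transcript that silences an X chromosome in females. Those were 1-hetero tumor 3, 8-hetero tumor 3 and the 4 normal tissues of these groups. That left 7 tumors and 2 normal tissues, whose 36 splits allow no p under 0.0278 and no adjusted p under 0.0556. The differences were then -1.07 for H2-Oa to H2-DMa, -1.5 for H2-Ob to H2-DMb1, 0.54 for Cd74 to H2-Aa, 0.63 for H2-DMa to H2-Aa and 0.45 for Ciita to H2-Aa.

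The second question was whether the KO label went with a different class II level. In tumors 0 of 9 genes passed between KO and WT labels, where 0.00725% of all genes did and 1147 had an unadjusted limma p under 0.05. All 9 had lower fitted values under the KO label, from -0.71 for Ciita (SE 0.39, limma adjusted p = 0.651) and -0.68 for H2-Aa (SE 0.40, limma adjusted p = 0.67) to -0.36 for H2-Oa. Without the WT old tumor Ciita had -0.22, H2-Aa -0.32 and H2-DMb1 -0.54, and the values of H2-Oa and H2-Ob turned to 0.65 and 0.76. In normal tissue 0 of 9 passed, where 0% of all genes did and 645 had an unadjusted limma p under 0.05, with fitted values from -0.16 for H2-DMa to 0.29 for H2-Aa. The test of whether the tumor difference depended on the label passed for 0 of 9 genes and 0% of all genes (654 at an unadjusted limma p under 0.05). The passes under WT and misses under KO are therefore not shown to differ. H2-Aa had the lowest value of that test, -0.97 (SE 0.61, limma adjusted p = 0.986).

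The 3 KO groups were then each set against the WT young tumors. These 3 comparisons share the 4 WT young tumors, so their values are given side by side. For Cd74 the mean was 840 ± 334 FPKM in WT young tumors (SD, n = 4). It was 1174 ± 577 in 1-hetero, 679 ± 355 in 8-hetero and 437 ± 81.5 in 8-homo tumors (SD, n = 3 each). For Ciita the means in the same order were 4.59 ± 1.67, 6.39 ± 3.28, 4.81 ± 2.76 and 1.83 ± 0.49 FPKM. For H2-DMb1 they were 59.8 ± 22.8, 61.5 ± 38.1, 48.9 ± 20.1 and 23.9 ± 4.87 FPKM. The 8-homo tumors had the lowest mean and the smallest SD of the 4 groups for each of these 3 genes.

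In 8-homo tumors 0 of 9 genes passed against WT young tumors, where 0.457% of all genes did and 1399 had an unadjusted limma p under 0.05. The median log2 difference of the 9 genes was -0.83, against 0.00 over all genes. H2-DMb1 was 29.3, 22.7 and 19.8 FPKM in the 8-homo tumors, all under the lowest WT young tumor at 46.1 FPKM, with a log2 difference of -1.24 (SE 0.37, limma adjusted p = 0.197). Ciita in the 8-homo tumors, at 2.05, 2.17 and 1.27 FPKM, was likewise under the lowest WT young tumor at 3.35 FPKM, a difference of -0.95 (SE 0.35, limma adjusted p = 0.337). H2-Aa, H2-Ab1, Cd74 and H2-DMa also did not overlap, with ratios of means of 0.513, 0.574, 0.52 and 0.528. Ranges that lay wholly below the WT young tumors in this way were found for 6 of 9 members and for 11.4% of all genes tested. H2-Eb1 overlapped at 161, 140 and 122 FPKM against 155 to 293, and H2-Oa and H2-Ob overlapped too.

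Interferon gamma-inducible genes were lower in the 8-homo tumors. Of the 8 listed, which include guanylate-binding and immunity-related GTPases and the chemokine Cxcl10, 6 fell against WT young tumors, with a median log2 difference of -2.23. Gbp2 fell by 2.79 on the log2 scale (SE 0.38, limma adjusted p = 0.0019), Irgm1 by 1.87 and Igtp by 2.13 (limma adjusted p = 0.0019 and 0.00201). The sum of the 8 was 117 to 162 FPKM in 8-homo tumors, 585 to 833 in WT young tumors, 504 to 677 in 8-hetero tumors and 81.9 to 176 in all normal tissue. Ifng itself was 0.184, 0.0855 and 0.04 FPKM in 8-homo tumors and 0.421, 0.428, 0.565 and 1.03 FPKM in WT young tumors, without overlap, at levels that failed the filter. Rfx5, a subunit of the X box factor, had 0.11 (limma adjusted p = 0.862). Of 9 macrophage markers 1 was higher, and their sum was 1009 to 2255 FPKM in 8-homo tumors and 497 to 733 in WT young tumors. In each other cell type list 0 markers passed. The part of cell types in these differences was not tested.

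Against the 8-hetero tumors, which carry the same leading number, the 8-homo tumors again had 0 of 9 genes past the threshold, where 0.0507% of all genes passed and 801 had an unadjusted limma p under 0.05. Ciita had -0.91 and H2-DMb1 -0.93 (limma adjusted p = 0.784 and 0.811). The 8-hetero tumors were spread widely: H2-Aa was 547, 182 and 451 FPKM, and replicate 2 was the lowest of the 3 tumors in each of the 9 genes. Of the 8 interferon gamma-inducible genes 3 were lower in 8-homo than in 8-hetero tumors. Between 8-hetero and WT young tumors 0 of 9 class II genes passed (0.00725% of all genes, 961 at an unadjusted limma p under 0.05), with fitted values from -0.55 to 0.22.

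**Figure D3:**
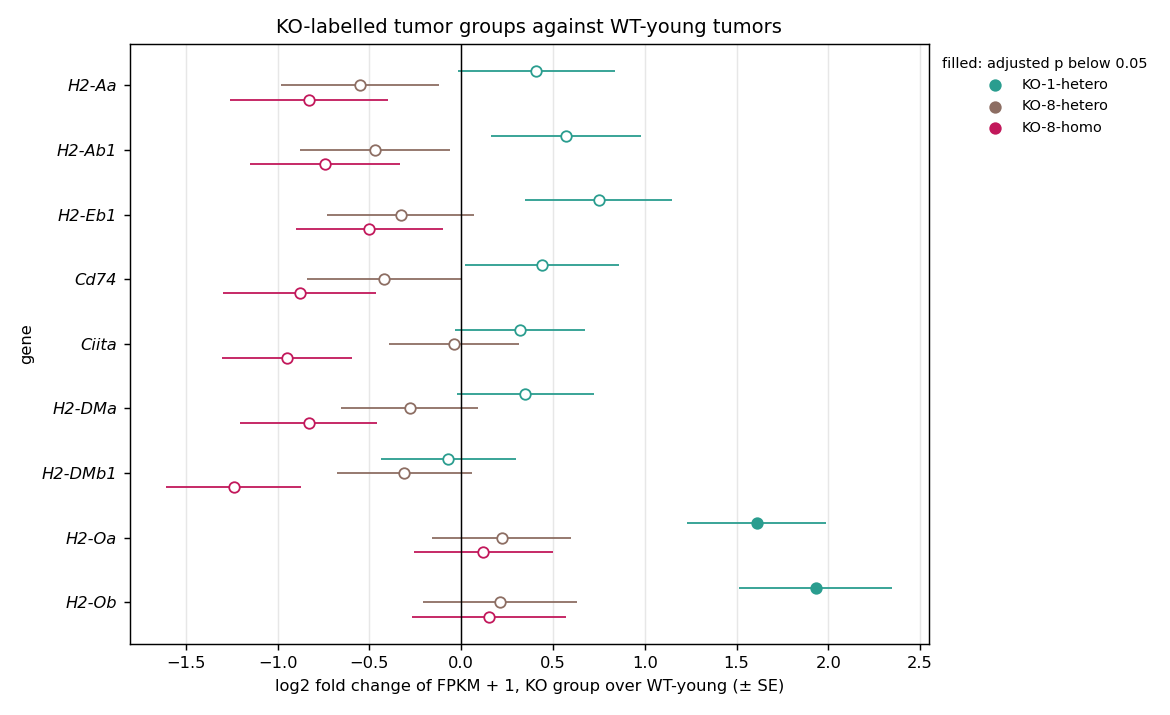
Difference between each KO-labelled tumor group and the WT young tumors for the 9 genes, as log2 of FPKM plus 1 with the standard error. Filled symbols passed at an adjusted p under 0.05, which only H2-Oa and H2-Ob in the 1-hetero group did, at 1.61 and 1.93. The 8-homo values lie between -1.24 and 0.15.

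In 1-hetero tumors the H2-O chains were higher than in WT young tumors, and these 2 of 9 genes were the ones that passed, where 2.88% of all genes did and 1.63% were higher. H2-Oa was 7.48, 3.04 and 7.26 FPKM in the 1-hetero tumors, each above the highest WT young tumor at 2.1 FPKM. The log2 difference was 1.61 (SE 0.38, limma adjusted p = 0.0338) and the ratio of means 4.91. H2-Ob was 9.78, 2.19 and 4.9 FPKM, each above the highest WT young tumor at 1.11 FPKM, with a difference of 1.93 (SE 0.42, limma adjusted p = 0.0266) and a ratio of means of 9.9. Of all genes tested 12.6% had ranges wholly above the WT young tumors in this comparison. H2-DMb2, the neighbouring paralog of H2-DMb1, was 21.8, 7.35 and 15 FPKM against 1.44 to 4.68 and also rose (2.03, SE 0.47, limma adjusted p = 0.0323), whereas H2-DMb1 had -0.07. The other 7 members had values from -0.07 to 0.75, with H2-Eb1 the highest (limma adjusted p = 0.326). The median over the 9 genes was 0.44. Neither call held without 1-hetero tumor 1 (1.42 for H2-Oa and 1.49 for H2-Ob) or tumor 3, the one with high Xist (1.44 and 1.93), or without WT young tumor 1, 3 or 4 (1.54 to 1.56 and 1.86 to 1.90). The level was not particular to the 1-hetero tumors. Normal tissue of that group had 9.91 and 3.99 FPKM of H2-Oa and 8.65 and 2.95 FPKM of H2-Ob. The ratios of means, 1-hetero tumor over 1-hetero normal tissue, were 0.853 and 0.969.

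B cell genes were higher in the same tumors. Of 9 B cell markers 6 rose against WT young tumors, among them Cd79a by 3.01 on the log2 scale (limma adjusted p = 0.0169) and Ms4a1, which encodes CD20, by 2.24 (limma adjusted p = 0.0178). Their sum was 44.2 to 148 FPKM in 1-hetero tumors and 3.57 to 20.5 in WT young tumors, against 8.79 to 109 over all normal tissue. Of 9 dendritic cell markers 5 were tested and 3 of these rose, the sum of all 9 being 20.8 to 37.3 FPKM against 9.65 to 20.5, and 2 of 5 plasma cell markers rose. Other lists moved too: 2 of 6 smooth muscle markers rose, with a sum of 701 to 1058 FPKM against 172 to 368, as did 1 of 6 T cell markers (32.3 to 66.4 against 11.7 to 21.2 FPKM), 1 of 9 macrophage markers (1195 to 1711 against 497 to 733 FPKM) and 1 of 4 pan-leukocyte markers (82.9 to 153 against 49.9 to 68.6 FPKM). Of 7 genes for class II transcription 0 passed. The part of these cell types in the H2-O difference was not tested. Set directly against the 8-hetero tumors, the 1-hetero tumors had 0 of 9 genes past the threshold (0% of all genes, 1363 at an unadjusted limma p under 0.05), with H2-Ob at 1.72 (limma adjusted p = 0.215) and H2-Oa at 1.39 (limma adjusted p = 0.249).

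The remaining genes of the pathway were read from lists in the tumor and normal comparison, in which 15.5% of all genes were higher under the WT label and 24.1% under the KO label. Of 8 interferon gamma-inducible genes 8 were higher in WT-labelled tumors, with a median log2 difference of 2.60, and 7 of 8 in KO-labelled tumors, with a median of 1.74. Cxcl10, a T cell attractant, rose by 3.42 under the WT label and 2.39 under the KO label (limma adjusted p = 0.000353 and 0.000351). Of 7 tested genes of the interferon gamma pathway 3 rose under the WT label and 2 rose and 1 fell under the KO label, near the 30.4% and 47.2% of all genes that passed in either direction. Irf1, a transcription factor of the interferon response, had 0.32 and 0.03 and did not pass.

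Of the 7 listed genes for class II transcription, Rfx5 rose under both labels, by 0.87 and 0.66 (limma adjusted p = 0.000755 and 0.000408), and Rfxank, another subunit of the same factor, fell by 0.58 under the KO label (limma adjusted p = 0.00119). Of 6 endosomal processing genes 1 rose under the WT label and 3 under the KO label, against 15.5% and 24.1% of all genes. Lgmn, which encodes a protease that starts the breakdown of the invariant chain, was the one that rose under the WT label, by 1.00 (limma adjusted p = 0.00465), and it rose by 0.78 under the KO label (limma adjusted p = 0.00272). Of 6 co-stimulatory and checkpoint ligand genes 5 rose under the WT label, 2 in WT young alone and 3 under the KO label. Cd274, which encodes PD-L1, rose by 1.75 and 1.07, and Cd80 by 1.00 and 0.89. March8, which encodes a ubiquitin ligase that takes class II from the surface, was the 1 of 3 turnover genes that passed, and it fell by 0.46 and 0.42 (limma adjusted p = 0.00754 and 0.0013). H2-DMb2 and H2-Eb2, the listed partners, passed under neither label.

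The 7 genes outside the H2-O pair followed each other from library to library. Across the 24 libraries, Pearson's r on log2 of FPKM plus 1 ran from 0.833 for H2-Aa with H2-DMb1 to 0.985 for H2-Ab1 with Cd74. H2-Oa and H2-Ob had an r of 0.982 with each other, and 0.961 over 23 libraries without the WT old tumor. With the other 7 genes the H2-O chains had r from 0.247 to 0.62, and from 0.00751 to 0.372 without that tumor. These are descriptions over libraries that share tissue and groups, and no test was made.

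By the same measure the genes most like the mean of H2-Aa, H2-Ab1, H2-Eb1 and Cd74 over 24 libraries were Ms4a4b (r = 0.923), Lat (0.916), Lag3 (0.9), Cd2 (0.899) and Cd3d (0.887), all of which are expressed in T cells or natural killer cells. Without the 2 libraries farthest from the median, the WT old tumor and 1-hetero tumor 3, these r were 0.842, 0.825, 0.799, 0.804 and 0.77. Over the 14 tumors alone they were Gm4070 (0.929), Ms4a4b (0.919), Lair1 (0.917), Hcst (0.916) and H2-M3 (0.914), and 0.91, 0.908, 0.827, 0.821 and 0.884 without the WT old tumor and 8-hetero tumor 2. Among those most like H2-Ob were Cxcr5 (0.989) and Fcer2a (0.982), which B cells express, and 0.969 and 0.957 without the WT old tumor and 1-hetero tumor 1.

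**Figure D4:**
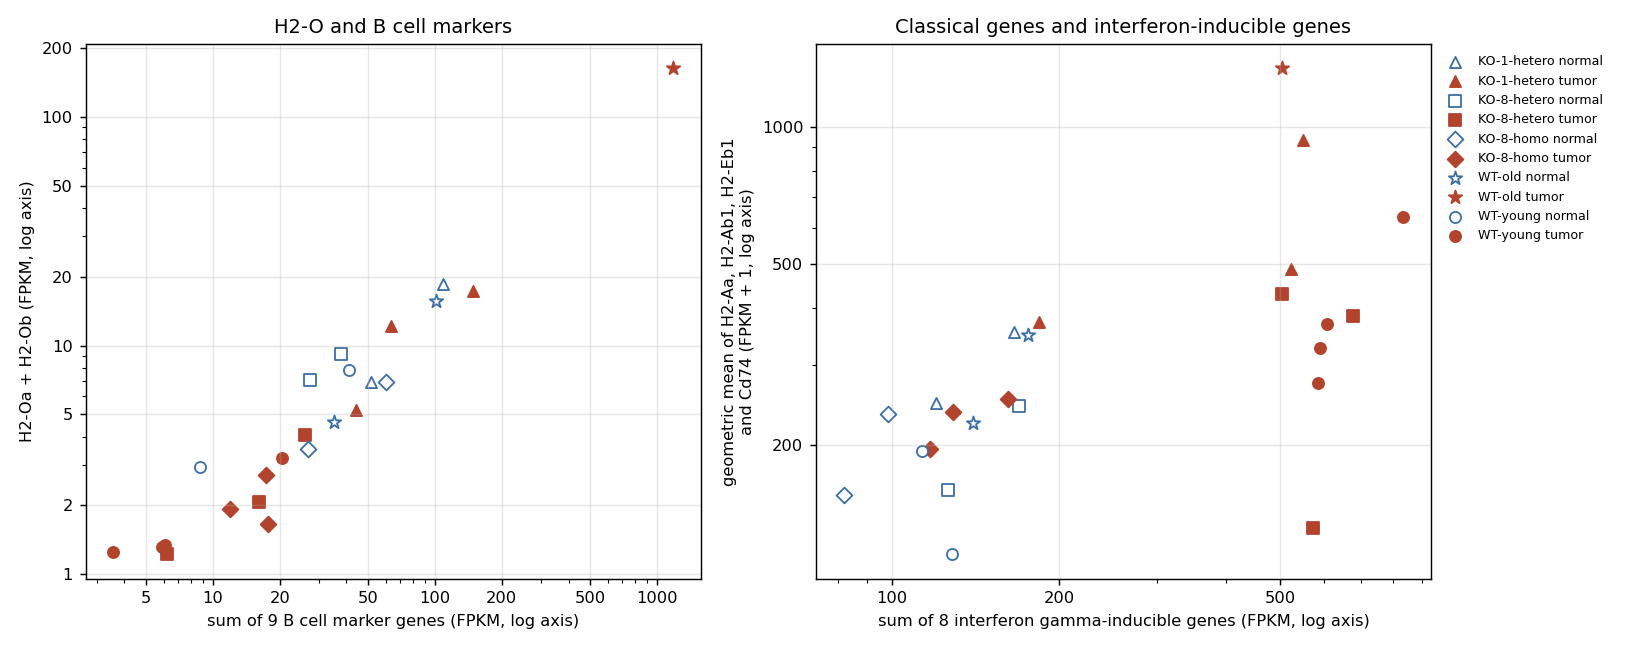
Left, H2-Oa plus H2-Ob against the sum of 9 B cell markers, in FPKM on log axes, 1 point a library. Right, the geometric mean of H2-Aa, H2-Ab1, H2-Eb1 and Cd74, each as FPKM plus 1, against the sum of 8 interferon gamma-inducible genes. On the left both sums are highest in the WT old tumor, at 1177 FPKM of B cell markers, and on the right the 8-homo tumors lie among normal tissue at 117 to 162 FPKM.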

How the data were processed

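Poly(A) RNA libraries (TruSeq Stranded mRNA) from RNA purified with a miRNeasy kit were sequenced, per the labels' protocols. The deposited tables give FPKM per gene and library, made by the authors. The submitters' processing notes name TopHat2 2.1.1, Bowtie2 2.2.8, SAMtools 0.1.18, Cuffdiff 2.2.1 and build mm10, and the annotation is not given in the sources used here.

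From these FPKM values log2(FPKM + 1) was computed, so fold changes of low genes are understated. The 13799 genes with at least 1 FPKM in at least 4 libraries were fitted with limma 3.58.1 (R 4.3.3; intensity trend; Benjamini-Hochberg threshold 0.05) over all 24 libraries, in 1 model of the 4 label and tissue combinations and 1 of the 10 title groups, giving 15 comparisons. Limma was used because FPKM are not counts. Ratios were tested by exact two-sided permutation over libraries, 10 tests adjusted together (Python 3.11.15, numpy 2.4.6, pandas 2.3.3, scipy 1.17.1). The scripts were tested on simulated data. No counting intervals are given because fragment totals are unknown. Relative depths, read from the steps of low values, were 0.688 to 1.87.

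The text names the 9 members, up to 3 genes of a list with the smallest adjusted p, partners of a member and factors upstream of Ciita, and the genes with the highest Pearson's r. The members and lists were chosen with earlier results of these data known. Nothing says that replicates are separate animals, so p-values measure only the spread between these libraries, which may be technical. Gene coordinates are from GENCODE M21 and promoters from RefSeq, both on GRCm38. Alternatives covered the pseudocount, filter, scaling, intensity trend, library weights, the groups in the fit, each library left out, a replicate block, and omission of the WT old tumor or of libraries with high Xist. Some results for listed genes are not reported here.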

Additional observations from a re-analysis of the deposited data

Results flagged for a closer look

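In groups of 4 to 10 libraries, the highest or lowest library was set against its nearest neighbour by Dixon's criterion. Of 45 such groups 17 had a library far from the others, and 5 of the 17 were the WT old tumor. The groups overlap and the genes move together, so the same libraries recur and the 17 were not set against a chance rate. In that tumor, against the next WT-labelled tumor, H2-Eb1 was 791 against 293 FPKM, Ciita 28.3 against 7.05, H2-DMa 79.1 against 34.9, H2-Oa 70.1 against 2.1 and H2-Ob 92.4 against 1.11.

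Among the WT young tumors, replicate 4 had H2-Aa at 1065 FPKM (next highest 442), H2-DMa at 34.9 (20.0) and H2-DMb1 at 93.9 (50.7). Replicate 2 had H2-Oa at 2.1 FPKM (next 0.944) and H2-Ob at 1.11 (0.437), so that the tumor with the highest H2-O was not the one with the highest H2-M. Among KO-labelled tumors, 1-hetero replicate 3 had H2-Aa at 1238 FPKM (next 547), H2-Ab1 at 621 (355), H2-Eb1 at 558 (275) and H2-DMa at 48.5 (28.0). There H2-Ob was highest in 1-hetero replicate 1, at 9.78 FPKM (next 4.9). Among KO-labelled normal tissues, 1-hetero replicate 1 had H2-Aa at 624 FPKM (next 399) and H2-Ob at 8.65 (3.15). The causes of these values were not tested.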

How the results depend on the processing

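The count of members past the threshold moved in 18 of 132 alternative fits. In WT-labelled tissue it went from 6 to 2 with no expression filter, 2 with only the groups compared, 0 with library weights and 2 without the WT old libraries, where Ciita passed in 17 of 18 alternatives and H2-DMb1 in 15 of 18. In KO-labelled tissue it went from 0 to 1 with a pseudocount of 0.1, 2 with library weights and 3 without the WT old libraries. For 1-hetero against WT young tumors it went from 2 to 0 without high-Xist libraries, and for 8-homo against WT young tumors from 0 to 2 with library weights. Tumor against normal went from 5 to 1 with library weights in WT young, from 0 to 2 with library weights in 1-hetero, from 2 to 0 with only the groups compared or library weights in 8-hetero, and from 0 to 2 with only the groups compared in 8-homo. With 1 library left out at a time the counts ran from 1 to 7 (WT label), 0 to 4 (KO label), 0 to 2 (1-hetero against WT young), 1 to 5 (WT young), 0 to 1 (1-hetero) and 0 to 5 (8-hetero). The other comparisons stayed at 0.

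Values that changed sign were all small or of the H2-O chains. In KO against WT tumors, H2-Oa and H2-Ob were 0.24 and 0.40 with library weights and 0.65 and 0.76 without the WT old libraries. With 1 library left out, tumor against normal ran from -1.14 to 0.17 for H2-Oa and -1.33 to 0.24 for H2-Ob (WT label) and from -0.04 to 0.31 for H2-Aa (KO label), KO against WT tumors from -0.66 to 0.65 for H2-Oa and -0.77 to 0.76 for H2-Ob, and the WT-label ratio of H2-DMa to H2-Aa from -0.09 to 0.20. Without high-Xist libraries the KO-label ratios kept their signs and could not pass with 36 splits (no adjusted p under 0.0556). With a pseudocount of 0.1 the WT-label ratio of Ciita to H2-Aa was 0.92 and passed. For the other values the cause was not tested. The ratio alternatives were chosen after the data were seen.

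The labels do not say whether equal replicate numbers pair the libraries. In the 1-hetero and 8-hetero groups both normal tissues had high Xist, whereas tumors 1 and 2 did not. Same-numbered libraries there thus differ in a mark of sex, and a replicate block joins unlike libraries. For the other groups pairing could not be settled. Deviations of same-numbered tumor and normal tissue correlated at -0.159 to 0.355 (1 of 8 pairs over 0.1) and those of tumors at -0.224 to 0.53 (7 of 18). The 2 normal tissues of a group have mirrored deviations, so the tumor and normal r cannot show or exclude pairing. In 8-hetero against WT young tumors all 3 pairs were over 0.1, at 0.239, 0.439 and 0.165, and the block left the count at 0. With a replicate block the count was 7 for the WT label, 1 for the KO label, 1 for 1-hetero against WT young tumors, and 1 each for WT young and 8-hetero tumor against normal. H2-Oa and H2-Ob were then 0.96 and 1.11 under the WT label and H2-Aa was -0.01 under the KO label. Over all genes the WT-label count of 4192 became 7142 with library weights, 2661 without the WT old libraries and 2230 with the block. H2-Oa and H2-Ob could not be fitted in WT young alone, where they failed the filter. Without high-Xist libraries no hetero normal tissue was left. Fragment totals were unknown, so the counting error of Ifng and H2-Ob, near 1 FPKM or below in many libraries, could not be given.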

Other observations

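H2-Eb2, a non-classical class II beta gene near H2-Eb1, followed the H2-O chains in the 1-hetero tumors, at 3.93, 0.796 and 1.27 FPKM against 0.172 to 0.416 in the WT young tumors, without overlap (log2 difference 1.12, SE 0.34, limma adjusted p = 0.0779, not passed). In the WT old tumor H2-Eb2 was 31.3 FPKM and H2-DMb2 160 FPKM, above H2-DMb1 at 88.8, whereas in the WT young tumors H2-DMb2 was 1.44 to 4.68 FPKM and H2-DMb1 46.1 to 93.9.

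Ctsl, an endosomal protease gene, fell by 0.70 in 1-hetero against WT young tumors (limma adjusted p = 0.0451) and Gbp2 by 1.63 (limma adjusted p = 0.0323). Cd83, whose product keeps class II on the surface, rose by 1.07 (limma adjusted p = 0.027). In 1-hetero tumor 2 the interferon gamma-inducible sum was 184 FPKM and Ifng 0.0622 FPKM, the lowest of the 1-hetero tumors. Each of the 9 members was also lowest in that tumor, with H2-Aa at 501 FPKM against 545 and 1238 in the others. Its mean log2 value of H2-Aa, H2-Ab1, H2-Eb1 and Cd74 was still 8.54. WT young tumors 1 to 3 had 8.1 to 8.53, with inducible sums of 585 to 608 FPKM. In 8-hetero tumor 2 the sum was 574 FPKM and that mean 7.04, the lowest of all tumors. How the sum and class II levels are related was not tested.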
